A study of Mus musculus with 27 samples.

Results

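The 10 genes described here encode the neuronal microtubule and neurofilament cytoskeleton, and were taken by name from the table of 54532 genes: the beta-tubulins Tubb3 and Tubb2b, the microtubule-associated proteins Map2, Mapt, Map1b, and Dcx, the stathmins Stmn2 and Stmn3, and the neurofilament subunits Nefl and Nefm. Each name matched 1 row. The genes were followed through the first days of induced neuron (iN) reprogramming, in which mouse embryonic fibroblasts (MEFs) are turned into neurons by introduced transcription factors. Bulk RNA-seq was made from 27 libraries, 3 replicates for each of 3 genotypes on days 0, 2, and 4, and the replicates are called biological in the sample labels without a statement of separate embryos or cultures, so p-values measure the spread between these libraries. The study asked how the circadian genes Per1 and Per2 act on the reprogramming of MEFs.

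The WT cells, the Per1-/- cells (B6.129-Per1tm1Drw line), and the cells labelled Per2-/- (B6.129-Per2tm1Drw line, here called Per2-labelled cells) were MEFs of mid-gestation embryos without head and heart, with 4 embryos pooled per dish. All 9 groups carried the same viruses, which were added on day -3 and held the reprogramming genes under a doxycycline-controlled promoter. Cells of day 0 had received the viruses but not yet doxycycline, and cells of days 2 and 4 had grown with doxycycline in serum-free neuronal medium. The labels call all libraries induced neurons, day 0 included.

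In build GRCm38 (mm10), Tubb3 (ENSMUSG00000062380) is annotated at chr8:123411424-123422015 on the plus strand and Tubb2b (ENSMUSG00000045136) at chr13:34126748-34130466 on the minus strand. The microtubule-associated proteins are Map2 (ENSMUSG00000015222, chr1:66175273-66442583, plus), Mapt (ENSMUSG00000018411, chr11:104231390-104332090, plus), Map1b (ENSMUSG00000052727, chr13:99421446-99516540, minus), and Dcx (ENSMUSG00000031285, chrX:143855842-143933311, minus). The stathmins are Stmn2 (ENSMUSG00000027500, chr3:8509360-8561606, plus) and Stmn3 (ENSMUSG00000027581, chr2:181306459-181314500, minus), and the neurofilament subunits are Nefl (ENSMUSG00000022055) and Nefm (ENSMUSG00000022054) on chromosome 14.

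Microtubules are polymers of alpha- and beta-tubulin, and neurons use beta-tubulin isotypes that most other cells do not, Tubb3 above all. Microtubule-associated proteins bind and stabilize the polymer: Map2 in dendrites and cell bodies, tau (Mapt) in axons, Map1b in growing axons, and doublecortin (Dcx) in young migrating neurons. Stathmins bind free tubulin and favor its release from microtubule ends, and neurofilaments, built from Nefl, Nefm, and other subunits, set the caliber of axons.

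Beta-tubulins differ most at their C-terminal ends, and these are shown because reads of near-identical copies cannot be assigned with certainty. The last 60 coding bases of Tubb3, Tubb2b, and Tubb2a are shown 5′ to 3′ from the GRCm38 transcript sequences, with capitals for bases that differ from the aligned base of Tubb2b or have none.
Tubb3: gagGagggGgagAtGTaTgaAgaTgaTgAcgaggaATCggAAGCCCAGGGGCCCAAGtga
Tubb2b: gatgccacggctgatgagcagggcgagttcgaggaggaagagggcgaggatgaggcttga
Tubb2a: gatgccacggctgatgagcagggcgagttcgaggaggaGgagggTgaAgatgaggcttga
Tubb3 differed from Tubb2b at 30 of these bases and Tubb2a at 3. Over the whole coding sequence, Tubb2b and Tubb2a were 96.5% identical with an unbroken identical run of 551 bases, so that the split of reads between this pair is uncertain, whereas Tubb3 and Tubb2b were 83.4% identical with a longest run of 45 bases. The stathmins Stmn2 and Stmn3 were 73.1% identical with a longest run of 21 bases.

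The libraries held 15815013 to 24264097 fragments assigned to genes. Levels are given as FPKM, that is, fragments scaled by gene length and by a factor per library. Per1 transcript was slightly lower in Per1-/- than in WT cells on day 0, at 4.11 ± 0.866 against 5.78 ± 0.479 FPKM (SD, n = 3 each). This difference did not pass the test (adjusted p = 0.771). Per2 transcript, by contrast, was higher in Per2-labelled than in WT cells, at 1.93 ± 0.0680 against 0.894 ± 0.0709 FPKM on day 0 (SD, n = 3 each, adjusted p = 0.00114), so this group is named by its label only. The summed level of 9 fibroblast markers was 2276 to 3863 FPKM per library on day 0. FPKM summed to 333295 to 374624 per library on day 0 and to 261289 to 343225 later, and after rescaling to a common total, the median change over the tested genes lay between 0.25 and 0.42 on the log2 scale in comparisons with day 0, against -0.02 to 0.00 before. This moved the share of higher genes among all calls from 51.3-53.5% to 71.7-81.9%, and from 50.5-57.1% to 24.2-38.7% between days 2 and 4.

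Tubb3, the neuronal beta-tubulin, was already expressed before reprogramming and rose early. On day 0, it was 23.5, 20.6, and 22.7 FPKM in WT cells, 46.2, 31.6, and 34.1 in the Per1-/- cells, and 18.5, 27.3, and 15.9 in Per2-labelled cells. On day 2, the values were 92.9, 95.1, and 127 in WT cells, 93.0, 120, and 95.3 in the Per1-/- cells, and 91.7, 101, and 92.5 in Per2-labelled cells. Each day 2 library was above each day 0 library. On day 4, they were 106, 115, and 151 in WT cells, 112, 134, and 102 in the Per1-/- cells, and 87.9, 156, and 76.3 in Per2-labelled cells, so days 2 and 4 overlapped. The rise from day 0 to day 2 was 4.66-fold in WT cells (log2 fold change 2.22 ± 0.23 (SE), adjusted p = 4.92e-08), 2.77-fold in Per1-/- cells (1.47 ± 0.23, adjusted p = 1.16e-05), and 4.74-fold in Per2-labelled cells (2.24 ± 0.23, adjusted p = 5.33e-08). The further change to day 4 was 0.09 to 0.24 on the log2 scale and did not pass the test in any genotype. Over the whole 4 days, Tubb3 rose by 2.46, 1.65, and 2.34 on the log2 scale (SE 0.23 each) in WT, Per1-/-, and Per2-labelled cells. In bulk RNA, fewer cells of a type and less RNA per cell cannot be told apart, which holds for each level given here.

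Tubb2b, a beta-tubulin of neural precursors and immature neurons, was high throughout and changed little. It ranged from 47.3 to 85.1 FPKM over the 9 libraries of day 0, from 49.5 to 81.2 on day 2, and from 68.7 to 108 on day 4, and the ranges of all 3 days overlapped. On day 4, the log2 fold change from day 0 was 0.53 ± 0.20 (SE) in WT cells (adjusted p = 0.0291) and 0.55 ± 0.20 in Per2-labelled cells (adjusted p = 0.0254), under the minimum of 0.58 that was required for a call, and 0.20 ± 0.20 in Per1-/- cells (adjusted p = 0.41). It passed that minimum without WT day 0 replicate 1 or 3 or day 4 replicate 1 or 2 (0.58 to 0.64), and without Per2-labelled day 0 replicate 2 or day 4 replicate 1 or 3 (0.63 to 0.69). Under rescaling to a common total, it was called in WT cells and in Per2-labelled cells (0.93 and 0.80). Its near copy Tubb2a, with 42.5 ± 2.67 FPKM on day 0 and 58.8 ± 3.69 on day 4 in WT cells (SD, n = 3), was not called either (0.47 ± 0.12, adjusted p = 0.00227).

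**Figure D1:**
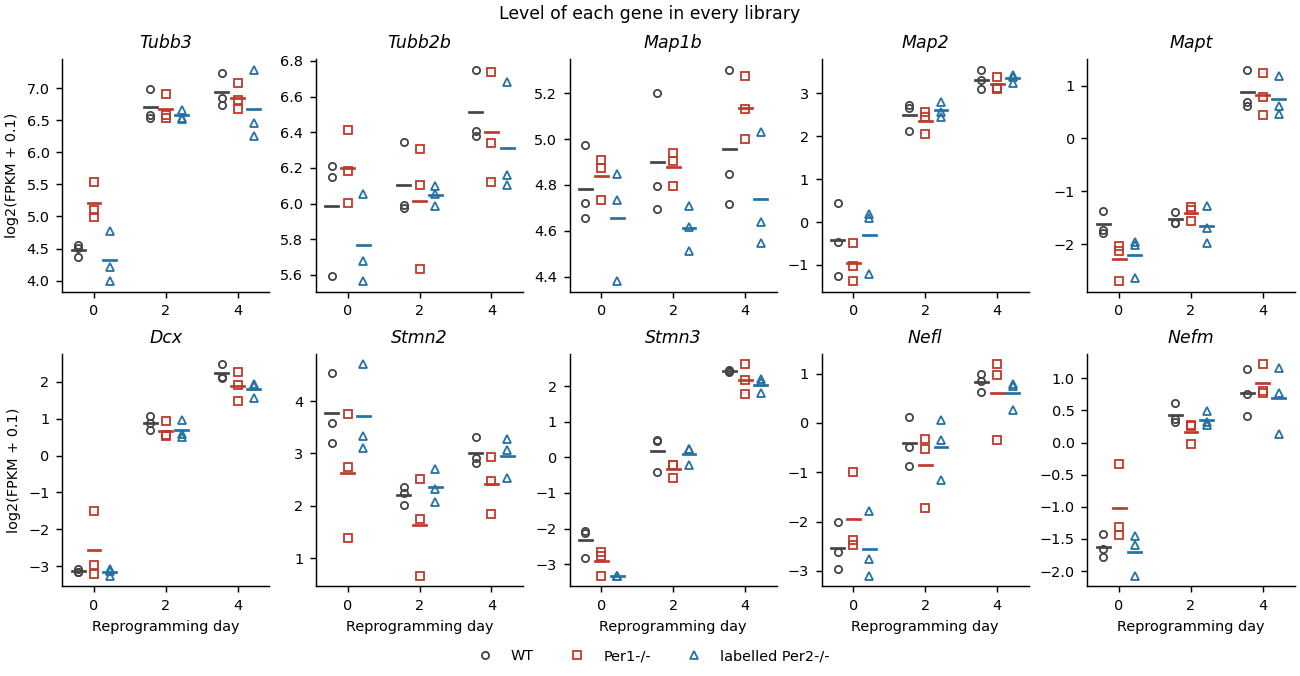
Level of the 10 genes in each of the 27 libraries as log2(FPKM + 0.1), by reprogramming day (x axis) and genotype (color and symbol), with a short line at each group mean and a separate y axis per gene. For Map2, Dcx, and Stmn3, the 9 libraries of each day lie above all libraries of the day before, for Mapt only those of day 4 do, and the days of Tubb2b and Map1b overlap.

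Map2 was low before reprogramming and rose by day 2. WT cells held 0.629, 1.26, and 0.318 FPKM before induction, 4.26, 6.51, and 6.17 by day 2, and 8.51, 9.77, and 11.6 by day 4. In Per1-/- cells, the values were 0.286, 0.615, and 0.395, then 5.79, 5.39, and 4.05, then 8.64, 10.4, and 8.53. In Per2-labelled cells, they were 1.04, 0.329, and 0.967, then 5.84, 6.85, and 5.39, then 10.7, 10.3, and 9.41. No library of a day overlapped with a library of another day. By day 2, Map2 was higher by 2.92 ± 0.35 (SE) on the log2 scale in WT cells, 3.31 ± 0.35 in the Per1-/- cells, and 2.92 ± 0.35 in Per2-labelled cells (adjusted p = 4.20e-07, 8.93e-08, and 5.37e-07). The step from day 2 to day 4, 0.82, 0.85, and 0.75 ± 0.35, did not pass the test within a genotype (adjusted p = 0.188, 0.171, and 0.204), although it did with voom weights on the fragments (0.0359, 0.0336, and 0.0484). Over the whole 4 days, Map2 rose by 3.74, 4.17, and 3.67 ± 0.35.

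Mapt, which encodes tau, rose between days 2 and 4. On day 0, it was 0.202, 0.289, and 0.192 FPKM in WT cells, 0.0549, 0.129, and 0.144 in the Per1-/- cells, and 0.158, 0.148, and 0.0617 in Per2-labelled cells. On day 2, it was 0.156 to 0.313 FPKM over the 9 libraries, still overlapping with day 0. On day 4, it reached 1.51, 1.44, and 2.36 FPKM in WT cells, 1.63, 2.25, and 1.26 in the Per1-/- cells, and 1.42, 2.15, and 1.29 in Per2-labelled cells, above each earlier library. The step from day 2 to day 4 was 2.39 ± 0.29 (SE) in WT cells, 2.22 ± 0.29 in the Per1-/- cells, and 2.40 ± 0.29 in Per2-labelled cells on the log2 scale (adjusted p = 8.15e-05, 0.000216, and 0.00019). Between days 0 and 2, Mapt was called in Per1-/- cells (0.88 ± 0.29, adjusted p = 0.0138) and not in WT cells (0.10 ± 0.29, adjusted p = 0.789) or in Per2-labelled cells (0.55 ± 0.29, adjusted p = 0.119). The Per1-/- call was lost without its day 0 replicate 1 (0.68, adjusted p = 0.0713) and with a pseudocount of 1 (0.21, adjusted p = 0.189).

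Map1b, a protein of growing axons, was expressed in MEFs at 20.7 to 31.3 FPKM on day 0 and stayed at 22.7 to 36.7 on day 2 and 23.3 to 39.4 on day 4 over 9 libraries each. No change over days was called, and the largest log2 fold change, in Per1-/- cells from day 0 to day 4, was 0.30 ± 0.16 (SE, adjusted p = 0.107). Dcx, in contrast, started from nearly nothing. In 8 of the 9 libraries of day 0, it was backed by 1 to 5 fragments (0.00419 to 0.0268 FPKM), and Per1-/- replicate 2 held 49 fragments (0.251 FPKM). On day 2, Dcx was 1.53, 1.99, and 1.75 FPKM in WT cells, 1.34, 1.80, and 1.36 in the Per1-/- cells, and 1.41, 1.86, and 1.31 in Per2-labelled cells. On day 4, it was 4.21, 4.26, and 5.46, then 2.71, 4.74, and 3.68, then 3.60, 3.76, and 2.83 in the same order. Days did not overlap. The fitted rise from day 0 was 4.01, 3.23, and 3.85 ± 0.30 (SE) on day 2 and 5.36, 4.46, and 4.96 ± 0.30 on day 4, values that the pseudocount limits, and the fitted step from day 2 to day 4 was 1.35 ± 0.30, 1.23 ± 0.30, and 1.11 ± 0.30 (SE) on the log2 scale (adjusted p = 0.0148, 0.027, and 0.0336). This step was 1.01 to 1.44 when single libraries were left out, but its adjusted p rose above 0.05 when WT day 2 replicate 1 or 3 or WT day 4 replicate 3 was left out (0.0537 to 0.0733), and in 5 of 6 such fits in each of the other genotypes (0.0622 to 0.118 in Per1-/- cells without day 2 replicate 1, 2, or 3 or day 4 replicate 2 or 3, and 0.075 to 0.109 in Per2-labelled cells without day 2 replicate 1 or 3 or day 4 replicate 1, 2, or 3).

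Of the stathmins, Stmn2 fell by day 2 in WT and Per2-labelled cells while Stmn3 rose in each genotype. Stmn2 was present in MEFs on day 0, at 11.9, 23.0, and 9.10 FPKM in WT cells, 2.53, 13.3, and 6.63 in the Per1-/- cells, and 25.9, 8.52, and 9.92 in Per2-labelled cells. On day 2, it was 1.49 to 6.44 FPKM over the 9 libraries, and on day 4, it was 3.49 to 9.90. The libraries of day 0 were spread over a wide range that overlapped with both later days. The fall from day 0 to day 2 was called in WT cells (log2 fold change -1.57 ± 0.52 (SE), adjusted p = 0.0124) and in Per2-labelled cells (-1.35 ± 0.52, adjusted p = 0.0312), and the value in Per1-/- cells was -0.99 ± 0.52 (adjusted p = 0.103). These calls rest on single libraries: without WT day 0 replicate 2, the value was -1.19 (adjusted p = 0.0759), without Per2-labelled day 0 replicate 1, -0.85 (0.193), and without day 2 replicates 2 or 3 of that group, -1.32 and -1.20 (0.0713 and 0.0946). In Per1-/- cells, it was called without day 0 replicate 1 (-1.61, adjusted p = 0.00937) or day 2 replicate 2 (-1.42, 0.033). Rescaling to a common total left no call (-1.15 and -1.03), and with all genes above 0 tested, the value of -1.35 in Per2-labelled cells was no longer called (adjusted p = 0.0664).

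Stmn3 was at or near 0 on day 0, with 3, 1, and 3 fragments in the WT libraries, 1, 0, and 1 in the Per1-/- libraries, and 0 in each Per2-labelled library. On day 2, it was 0.646, 1.27, and 1.31 FPKM in WT cells, 0.755, 0.769, and 0.575 in the Per1-/- cells, and 1.07, 1.08, and 0.764 in Per2-labelled cells. On day 4, it was 5.23, 5.14, and 5.34, then 3.29, 5.99, and 4.37, then 4.50, 4.20, and 3.39. Every library of a later day was above every library of an earlier day. Against a floor of 3 fragments over the group, Per2-labelled cells were at least 19.7-fold higher on day 2 and at least 81.8-fold higher on day 4. In WT cells, the ratio to the 7 fragments of day 0 was 9.96 on day 2 (95% interval 4.60 to 25.6) and 50.8 on day 4 (24.4 to 127). In Per1-/- cells, the ratio was 19.8 on day 2 (95% interval 5.19 to 168) and 125 on day 4 (34.3 to 1036), with exact intervals that cover counting error only. The step from day 2 to day 4, between values that were all measured, was 2.24 ± 0.27 (SE) in WT cells, 2.51 ± 0.27 in the Per1-/- cells, and 1.95 ± 0.27 in Per2-labelled cells on the log2 scale (adjusted p = 5.95e-05, 2.17e-05, and 0.00036).

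The neurofilament genes stayed low but rose. Nefl was 0.0168 to 0.403 FPKM on day 0, 0.203 to 0.994 on day 2, and 0.690 to 2.17 on day 4 over 9 libraries each, and Nefm was 0.137 to 0.696, 0.883 to 1.43, and 1.00 to 2.22. Nefm of day 2 was above each library of day 0, and both genes were above day 0 on day 4. In WT cells, Nefm was higher by 2.06 ± 0.28 (SE) on day 2 and 2.39 ± 0.28 on day 4 on the log2 scale, and Nefl by 2.12 ± 0.49 and 3.36 ± 0.49 (adjusted p = 2.61e-06, 3.10e-07, 0.000889, and 5.35e-06). In Per1-/- cells, Nefm was higher by 1.19 ± 0.28 on day 2 (adjusted p = 0.00107), and Nefl was called on day 4 and not on day 2 (1.09 ± 0.49 on day 2, adjusted p = 0.0612, and 2.56 ± 0.49 on day 4, adjusted p = 0.00013). Without Per1-/- day 0 replicate 2 or day 2 replicate 1, Nefl was called on day 2 as well (1.57 and 1.52, adjusted p = 0.0135 and 0.0186). Nefl lies within the annotated span of Nefm on the opposite strand (chr14:68083863-68089095 and chr14:68082590-68124846, mm10) and share 1108 exonic bases, 32.8% of Nefl and 19.2% of Nefm, so in these libraries, which do not mark strand, reads in the shared stretch cannot be assigned. The other 8 genes shared no exonic bases with another annotated gene, except for 124 bases (0.754%) of Map2.

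**Figure D2:**
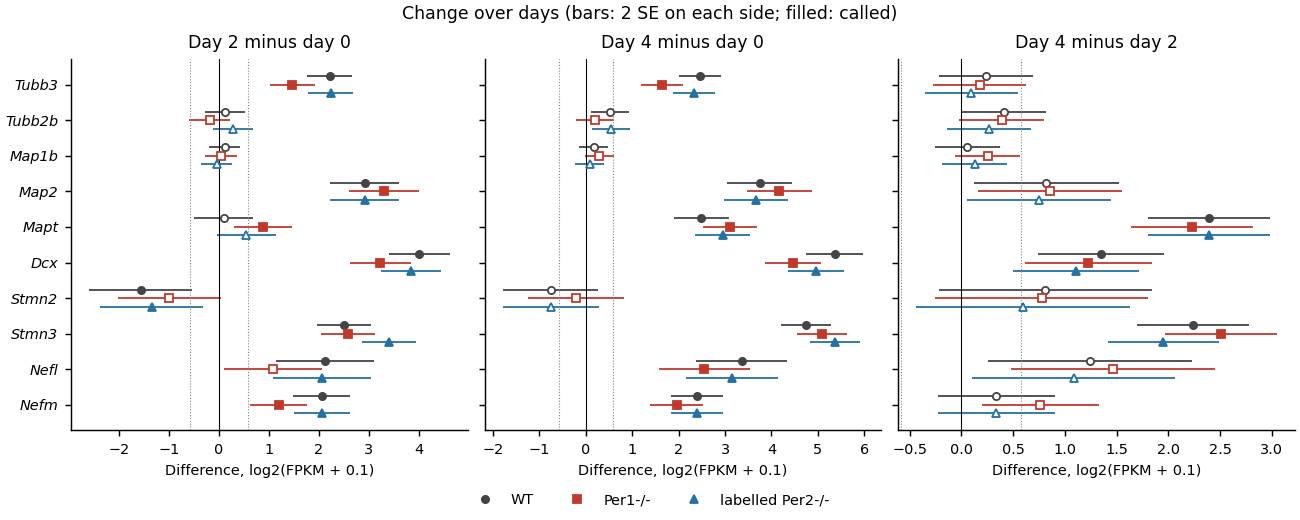
Differences between days within each genotype for the 10 genes, on the log2(FPKM + 0.1) scale, with bars of 2 SE on each side, filled symbols for called differences, and dotted lines at the minimum log2 fold change of 0.58. In each genotype, 7 genes were called higher on day 4 than on day 0, and 3 of them (Stmn3, Dcx, and Mapt) were called again between days 2 and 4.

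Counted over the 10 genes, 6 were called higher on day 2 than on day 0 in WT cells (Tubb3, Map2, Stmn3, Dcx, Nefm, and Nefl) and 1 was called lower (Stmn2), where 20.8% of all 14932 tested genes were called higher and 19.7% lower. The libraries labelled Per2-/- gave the same calls, against 18.7% and 16.8%, and Per1-/- cells gave 6 higher, with Mapt in place of Nefl, and 0 lower, against 20.8% and 18.8%. On day 4, the same 7 genes were called higher than on day 0 in all 3 genotypes (Tubb3, Map2, Stmn3, Dcx, Nefm, Nefl, and Mapt), against 22.9%, 22.6%, and 21.6% of all genes in WT cells, Per1-/- cells, and Per2-labelled cells. None was called lower, against 20.9%, 20.4%, and 18.8%. Between days 2 and 4, Stmn3, Dcx, and Mapt were called higher in each genotype, against 1.62%, 1.38%, and 2.32% of all genes, and none lower, against 1.59%, 1.06%, and 1.74%. The median log2 fold change of the 10 genes from day 0 to day 4 was 2.47 in WT cells, 2.26 in the Per1-/- cells, and 2.67 in Per2-labelled cells, and that of all tested genes lay between -0.02 and 0.00. The comparisons of days 2 and 4 with day 0 share their day 0 libraries.

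Mapt, Dcx, Stmn3, Nefl, and Nefm had a mean under 0.5 FPKM on day 0 and passed the filter of a mean of at least 0.5 FPKM over all libraries through the later days, so their counts are no independent support for a rise. With all genes above 0 tested, the same 7 genes were called on day 4 in each genotype. Over libraries rather than groups, 7 of the 10 genes were higher in all 9 libraries of day 4 than in all 9 of day 0 (19.8% of tested genes), 5 on day 2 than on day 0 (Tubb3, Map2, Dcx, Stmn3, and Nefm; 19.7%), and 4 on day 4 than on day 2 (Map2, Mapt, Dcx, and Stmn3; 2.01%).

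Libraries of a genotype that share a replicate number deviated together in 3 comparisons of days (WT days 2 and 4, Per1-/- days 0 and 2, and Per1-/- days 2 and 4). When pairs of genotype and number entered the fit as a block, Nefl was also called between days 2 and 4 in WT cells (1.24 ± 0.36 (SE), adjusted p = 0.0443), against 3.08% of all genes called higher in that fit. In Per1-/- cells, the block added Nefl (1.09 ± 0.36, adjusted p = 0.0166) and the fall of Stmn2 (-0.99 ± 0.33, adjusted p = 0.0153) between days 0 and 2, and Nefl and Nefm between days 2 and 4 (1.47 ± 0.36 and 0.76 ± 0.22, adjusted p = 0.022 and 0.0445), which made 5 genes called higher there in place of 3. The shares of all genes called in these fits were 21.5% higher and 19.4% lower between days 0 and 2, and 2.75% higher between days 2 and 4.

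The 7 genes that rose did so on different schedules. As a share of the rise in mean FPKM from day 0 to day 4, Tubb3 had reached 81.3% by day 2 in WT cells, 83.0% in the Per1-/- cells, and 86.6% in Per2-labelled cells. Map2 was near the middle, at 53.2%, 53.0%, and 55.9%, and Dcx below it, at 37.6%, 38.9%, and 44.8%. Stmn3 had reached 19.0%, 14.7%, and 24.1%, and Mapt 1.39%, 10.6%, and 6.88%. The neurofilament genes differed more between genotypes, with 72.7%, 43.2%, and 70.8% for Nefm and 37.6%, 22.1%, and 42.4% for Nefl. On group means, Tubb3 thus led and Mapt came last in each genotype. Each library was then left out in turn, an alternative chosen after seeing the data. Tubb3 ranged from 70.6% to 93.9% in WT, 72.1% to 93.8% in Per1-/-, and 73.6% to 121% in Per2-labelled cells. Nefm ranged from 63.6% to 87.2%, 39.9% to 50.3%, and 58.4% to 88.9%, so the 2 genes stayed apart only in Per1-/- cells. The share of Mapt rests on single libraries. It ranged from 0.231% (without day 0 replicate 3) to 3.30% (without day 0 replicate 2) in WT cells. In Per2-labelled cells, it ranged from 3.95% (without day 2 replicate 2) to 9.21% (without day 2 replicate 3). In Per1-/- cells, it ranged from 9.09% to 12.8%, near the lowest Stmn3 share of 12.9%. These shares are descriptions of group means with no test.

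**Figure D3:**
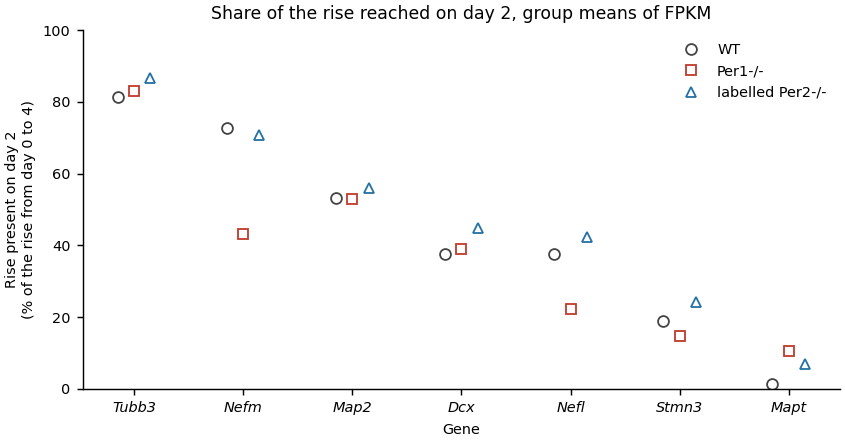
Share of the rise from day 0 to day 4 that was present on day 2, in percent of the rise in mean FPKM (y axis), for the 7 genes called higher on day 4 (x axis) and the 3 genotypes (symbols). Tubb3 lies above 80% in each genotype and Mapt below 11%.

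Ordered by their group means, the 9 groups of Tubb3 ran from 124 FPKM in WT cells on day 4 to 20.5 in Per2-labelled cells on day 0. Of the 8 neighboring pairs in this order, 6 overlapped, and the pairs apart were the lowest day 2 group against Per1-/- cells on day 0 (95.2 and 37.3 FPKM) and the latter against WT cells on day 0 (22.3 FPKM). For Map2, 6 of 8 neighbors overlapped, and the gaps fell between the days (9.19 and 6.03, 5.07 and 0.780 FPKM). For Mapt, 7 of 8 overlapped, and the gap was between day 4 and the earlier days (1.62 and 0.280 FPKM). All 8 neighbors overlapped for Tubb2b, Map1b, and Stmn2.

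Between genotypes on the same day, limma called none of the 10 genes on any day. For Per1-/- against WT cells, 0.0134%, 0.0067%, and 0.0268% of all tested genes were called on days 0, 2, and 4 (2, 1, and 4 genes). The study's own test, at the same thresholds, reported many more genes that differed in Per1-/- cells on days 2 and 4. Few calls in the present fit therefore do not show that the genotypes hardly differ. For Per1-/- cells against Per2-labelled cells, 0.0201%, 0.0737%, and 0.556% were called, and for the latter against WT cells 0.0067%, 0.0268%, and 0.0067%. At an unadjusted p under 0.05, 5 of the 10 genes differed between Per1-/- and WT cells on day 0 (of 719 genes in all), 0 on day 2 (of 410), and 0 on day 4 (of 924). With voom weights on the fragments, 0 were called as well.

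On day 0, Tubb3 was higher in each Per1-/- library than in the 6 libraries of the other groups (0.643% of tested genes were placed so). The difference was 0.72 ± 0.23 (SE) on the log2 scale against WT cells (adjusted p = 0.786) and 0.88 ± 0.23 against Per2-labelled cells (adjusted p = 0.407). Stmn3, with at most 3 fragments in a library, was lower in Per2-labelled cells than in WT cells on day 0 (-0.99 ± 0.27, adjusted p = 0.851), and of the alternatives run, only a pseudocount of 0.01 gave a call (-3.37, adjusted p = 0.00608). Mapt, Stmn2, and Stmn3 were lower in Per1-/- than in WT cells by 0.66 ± 0.29, 1.14 ± 0.52, and 0.59 ± 0.27 on the log2 scale, and Nefm was higher by 0.60 ± 0.28 (SE), each with an adjusted p of 1.0. The Nefm value includes the outlying Per1-/- replicate 2 (0.696 FPKM, against 0.304 and 0.269), which also had the most Dcx and Nefl on day 0.

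**Figure D4:**
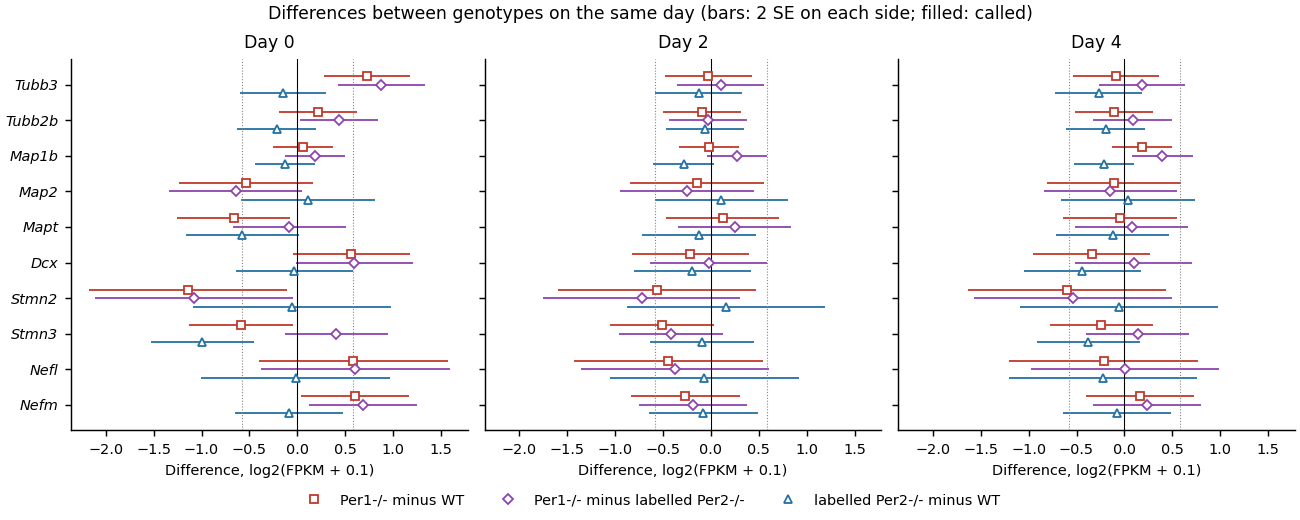
Differences between genotypes on days 0, 2, and 4 for the 10 genes, on the log2(FPKM + 0.1) scale, with bars of 2 SE on each side and filled symbols for called differences. No symbol is filled, and the bars for Tubb3 and Map2 on days 2 and 4 include 0.

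On day 4, the difference between Per1-/- and WT cells was -0.09 for Tubb3 (2 SE on each side, -0.54 to 0.36), -0.11 for Map2 (-0.81 to 0.59), -0.05 for Mapt (-0.64 to 0.54), and -0.34 for Dcx (-0.95 to 0.27). It was -0.24 for Stmn3 (-0.78 to 0.30), -0.22 for Nefl (-1.20 to 0.77), and 0.16 for Nefm (-0.40 to 0.72). The remaining values were -0.60 for Stmn2 (-1.63 to 0.43), -0.11 for Tubb2b (-0.52 to 0.30), and 0.18 for Map1b (-0.14 to 0.49). These intervals leave room for differences of over 1.5-fold in most genes, and a p above the threshold does not show equal levels. Dcx and Stmn3 were lower in each Per2-labelled library than in each WT library on day 4 (6.13% of tested genes were placed so), by 0.44 ± 0.30 and 0.38 ± 0.27 (SE). Map1b was higher in Per1-/- cells than in Per2-labelled cells by 0.40 ± 0.16 on day 4 (adjusted p = 0.26) and did not overlap on day 2 (8.59% of tested genes were placed so).

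The genotypes were also compared in their change from day 0, and 0 of the 10 genes, and 0 of all 14932 tested, were called. For Tubb3, the change in Per1-/- cells minus that in WT cells was -0.75 ± 0.32 (SE) on the log2 scale to day 2 and -0.81 ± 0.32 to day 4 (adjusted p = 1.0 for both). At an unadjusted p under 0.05, 2 of the 10 genes (of 306 in all) differed in the change to day 2 between Per1-/- and WT cells and 2 (of 500) in the change to day 4. The share called was 0.0% in each of the 6 comparisons.

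Macrophage markers were compared as sums, which did not overlap between the genotypes on days 2 and 4 and were not tested. Between Per1-/- and WT cells, limma called 1 and 4 of all tested genes on these days. Most of the markers were thus not called singly there. The summed FPKM of 14 macrophage markers was 382 to 648 per library in Per1-/- cells on day 2, against 197 to 274 in WT cells and 109 to 188 in Per2-labelled cells, and 754 to 1142 on day 4, against 403 to 538 and 293 to 379. On day 0, the sums overlapped, at 104 to 193 in WT cells, 90.2 to 530 in Per1-/- cells, and 53.3 to 262 in Per2-labelled cells. Each of the 14 was detected in each group. Their part in the comparisons of genotypes was not tested.

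Within a group, 1 library often stood above the others in most of the 10 genes. On day 4, replicate 2 of Per1-/- cells was the highest of its 3 in 10 of 10 genes, replicate 3 of WT cells in 9 of 10, and replicate 2 of Per2-labelled cells in 8 of 10, whereas these libraries were the highest in 37.1%, 39.4%, and 37.8% of all tested genes. The summed level of the 10 genes was 315 FPKM in the first, against 238 and 242 in the other Per1-/- libraries, 337 against 248 and 256 in WT cells, and 325 against 215 and 194 in Per2-labelled cells. Replicate 2 of Per1-/- cells also had the highest FPKM total of its group, 343225 against 278876 and 292002, and as a part of that total its 10 genes came to 917 TPM (FPKM rescaled to a common total; computed after the data were seen), against 855 and 828. The same sums were 1253 against 899 and 898 TPM in WT cells, and 1136 against 778 and 660 in Per2-labelled cells. The same libraries had the most of 11 neuron markers, at 29.4 against 23.5 and 23.5 FPKM, 38.3 against 25.3 and 25.6, and 37.5 against 24.9 and 22.4. What sets these libraries apart was not tested.

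Other cytoskeletal genes were counted by list for day 4 against day 0, where 22.9%, 22.6%, and 21.6% of all tested genes were called higher and 20.9%, 20.4%, and 18.8% lower in WT cells, Per1-/- cells, and Per2-labelled cells. Of 3 other neuronal intermediate filament genes, 3 rose by day 4 in each genotype: Prph, from 0.556 ± 0.772 to 37.7 ± 4.22 FPKM (SD, n = 3) in WT cells, Ina, from 0.0464 ± 0.0265 to 6.66 ± 1.22, and Nefh, from 0.0126 ± 0.000535 to 3.10 ± 0.837. Peripherin (Prph) is the intermediate filament of peripheral neurons, and its level was far above that of Nefl and Nefm. The median of the 3 was 5.53 on the log2 scale in WT cells. On day 0, the group means were 0.0464 to 0.0722 FPKM for Ina and 0.0126 to 0.0414 for Nefh. Both passed the filter through the later days, so this count and median are no independent support for a rise.

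Of 6 neuronal motor subunits, 4 rose in WT cells by day 4, 5 in the Per1-/- cells, and 4 in Per2-labelled cells. The kinesin heavy chains Kif5c and Kif5a rose by 3.01 ± 0.29 and 2.68 ± 0.18 (SE) on the log2 scale in WT cells, and the kinesin Kif21b and the dynein intermediate chain Dync1i1 each by 2.58 (± 0.19 and ± 0.28). Of 10 growth cone and collapsin response genes, 5 rose and 2 fell in WT cells, 5 and 1 in the Per1-/- cells, and 5 and 2 in Per2-labelled cells. Dpysl5, a collapsin response mediator, rose by 5.50 ± 0.37, and Cdk5r2 and Cdk5r1, the activators of the kinase Cdk5, by 4.38 ± 0.31 and 3.39 ± 0.21. With a mean of 0.123 FPKM on day 0, Dpysl5 too passed the filter through the later days. Fez1, a kinesin adaptor of growing axons, fell in each genotype (-1.33 ± 0.23 in WT cells), and the collapsin response mediator Dpysl3 fell in WT and Per2-labelled cells (-0.63 ± 0.25 in WT cells, adjusted p = 0.0344). Gap43, a growth cone protein chosen for mention after its values were seen, was 33.0 ± 4.98 FPKM on day 0 and 16.6 ± 0.979 on day 4 in WT cells (SD, n = 3), which did not pass the test (-0.97 ± 0.50 (SE), adjusted p = 0.0925).

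Of 12 other neuronal tubulins and microtubule-associated proteins, 11 passed the filter, and by day 4, 5 rose and 1 fell in WT cells, 6 and 2 in the Per1-/- cells, and 6 and 1 in Per2-labelled cells. The minus-end binding protein Camsap3 rose by 3.08 ± 0.32 (SE) in WT cells, the doublecortin-like kinases Dclk2 and Dclk1 by 2.58 ± 0.20 and 2.27 ± 0.26, and Map1a by 1.45 ± 0.28. Map6, which stabilizes microtubules in the cold, fell by 1.40 on the log2 scale. Of 11 tubulin-modifying enzymes, 10 were tested, and 4 rose and 0 fell in each genotype: the detyrosinating Vash1 (2.21 ± 0.25 in WT cells) and Vash2 (0.83 ± 0.15), the acetyltransferase Atat1 (1.38 ± 0.12), and the polyglutamylase Ttll7 (0.96 ± 0.22).

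The lists of widely expressed cytoskeletal genes are read against the 20.9%, 20.4%, and 18.8% of all genes called lower. Of 14 general tubulins and microtubule regulators, 13 were tested, and 8 fell by day 4 in each genotype, with 1 called higher in WT cells and 0 in the others. Tuba4a, Tubb6, Tuba1c, and Tubb4b fell by 2.24, 1.95, 1.83, and 1.46 on the log2 scale in WT cells, and the exception was Stmn1, the widely expressed stathmin, which rose by 0.74 ± 0.19 (SE). Under rescaling to a common total, 5, 7, and 5 still fell in WT cells, Per1-/- cells, and Per2-labelled cells. Of 6 non-neuronal intermediate filament genes, 5 fell in each genotype, among them vimentin (Vim, from 1365 ± 66.2 to 638 ± 110 FPKM in WT cells; SD, n = 3) and nestin (Nes, 52.8 ± 13.3 to 9.42 ± 1.19). Under the rescaling, 4, 4, and 3 fell, and no gene called in any of these lists changed its sign.

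**Figure D5:**
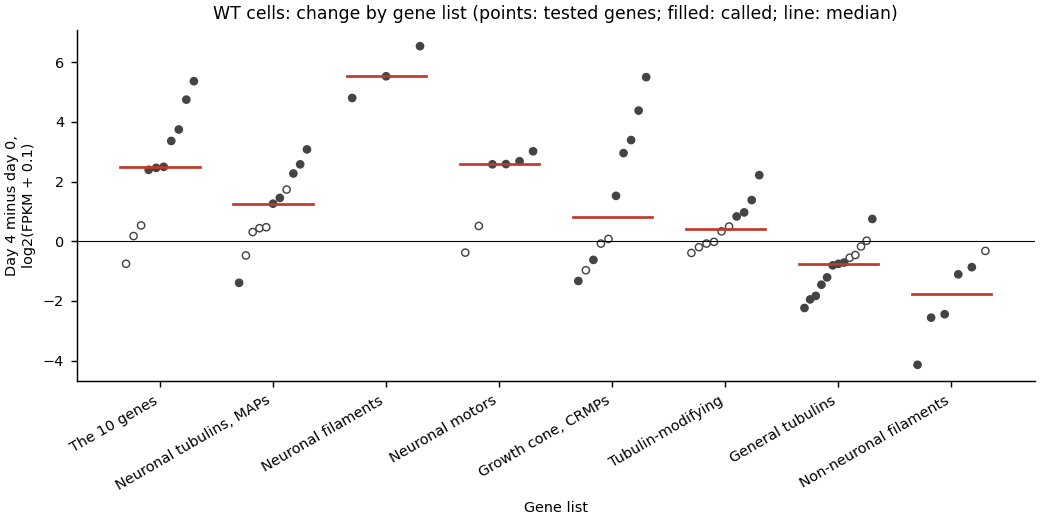
Change from day 0 to day 4 in WT cells on the log2(FPKM + 0.1) scale for the 10 genes and 7 lists of cytoskeletal genes, with a point for each tested gene, filled where called, and a line at the median. The medians of the neuronal filaments (5.53), neuronal motors (2.58), and the 10 genes (2.47) lie above 0, and those of the general tubulins (-0.76) and non-neuronal filaments (-1.78) below it. Genes that were low on day 0, such as Ina and Nefh, entered the lists only through the later days.

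Genes with the most similar profiles were sought among all tested genes, by the root mean square (RMS) difference of the log2 profile over the 9 group means, each centered on its own mean. Nearest to Tubb3 were Fam222a, Zcwpw1, and Cyp46a1 (RMS difference 0.147, 0.15, and 0.153), to Map2, Osr2 and the noncoding genes Gm15612 and Gm4211 (0.136, 0.166, and 0.177), and to Mapt, Pak6, Pi15, and Srrm4 (0.276, 0.282, and 0.323). The median profile of the 10 genes was nearest to that of the doublecortin-like kinase Dclk2 (0.122), followed by Ttbk1 and Kif5c (0.169 and 0.175). Among the 10 genes themselves, the closest pairs were Tubb2b with Map1b (0.165) and Tubb3 with Nefm (0.166). These are descriptions over 9 group means.

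The cell type markers are read against the same 22.9%, 22.6%, and 21.6% of genes called higher and 20.9%, 20.4%, and 18.8% lower by day 4. Of 11 neuron markers, 6 were tested and 6 rose in each genotype, led by Elavl3 and Syt1 (6.09 ± 0.27 and 5.09 ± 0.21 (SE) in WT cells). Their summed level was 1.97 to 3.72 FPKM per library on day 0 and 22.4 to 38.3 on day 4. Of the 6, Snap25, Syt1, Elavl3, and Elavl4 had a mean under 0.5 FPKM on day 0 and passed the filter through the later days, so that their count is no support for a rise. The markers under the filter included Syp, Rbfox3, Slc17a6, and Gad1, which were chosen for mention after their values were seen. In WT cells, Syp was 0.0132 FPKM on day 0 and 0.861 on day 4, whereas Slc17a6, a vesicular glutamate transporter, was 0.0900 and 0.0215, and Gad1, which makes GABA, had 0 and 2 fragments. On day 0, Rbfox3, Elavl3, and Gad1 had no fragment in WT libraries. Fibroblast markers did not disappear: of 9, 7 rose and 2 fell in WT cells, and 6 and 2 in each of the others. Macrophage markers rose as well, in 11 of 14 in WT cells, 13 in the Per1-/- cells, and 8 in Per2-labelled cells. Muscle markers were higher in 5 of 8 tested in WT cells and 4 in the others, with Acta1 lower in each. Schwann and neural crest markers were higher in 1, 3, and 3 of 6. Of 6 glial markers, 3 were tested and 2 rose in each genotype. Among those tested, Aqp4 had group means of 0.0439 to 0.0659 FPKM on day 0 and passed the filter through the later days. The glial count is therefore no independent support for a rise. Tac1, the 1 peripheral neuron marker tested of 7, was called higher in none. Of the other 6, Pou4f1, a sensory neuron transcription factor chosen for mention after its values were seen, had 3 fragments on day 0 and 264 on day 4 in WT cells (0.0109 and 0.877 FPKM).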

How the data were processed

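Polyadenylated RNA of 27 mouse libraries was sequenced as paired ends without strand information. The authors mapped reads with HISAT2 (2.0.5) to mm10 and counted fragments per gene with featureCounts (1.5.0-p3). These tools are named in the submitters' processing notes and the study's methods. The deposited FPKM are fragments scaled by gene length and by a factor per library. That factor did not follow the fragments on genes alone. In FPKM times gene length, 1 fragment stood for 52.6 in WT day 0 replicate 1, with 21906593 fragments. It stood for 51.5 in WT day 2 replicate 3, with 17829809 fragments. Of the values, 100.0% came out as whole fragments within 0.01, so depth was recovered. FPKM sums depend on which genes are expressed, so a shift of all genes cannot be separated from a change of single genes.

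Groups followed the sample labels. The 10 genes and all lists were chosen with earlier results of these data known. Levels were compared as log2(FPKM + 0.1), for the 14932 genes whose mean over all 27 libraries reached 0.5 FPKM, with limma (3.58.1, R 4.3.3; lmFit, contrasts.fit, eBayes with trend) in a single fit over 9 groups. Adjusted p-values follow Benjamini and Hochberg over all tested genes of a comparison. Calls required an adjusted p up to 0.05 together with a change of 0.58 or more on the log2 scale, up or down, and fold changes of low genes are understated by the pseudocount. The 24 comparisons comprised 9 between days, 9 between genotypes, and 6 of the change between genotypes. The fit was also run on simulated independent counts with known changes in few genes. Deviations shared by replicate number and changes in many genes were not simulated, so that run does not show how the fit behaves under them. Tables and figures were made with Python 3.11.15, pandas 2.3.3, and matplotlib 3.10.9, and coding sequences were aligned with Biopython 1.88. With 3 libraries per group, an exact permutation test cannot go below 0.1, so none was used for single genes.

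All 10 genes are named. Of each list, at most 4 called genes per direction with the largest log2 fold change are named, with Per1 and Per2 as the check of the labels, Tubb2a as the near copy of Tubb2b, and the 3 genes nearest in profile to Tubb3, Map2, Mapt, and the median of the 10. Replicate numbers were taken as pairing libraries where every correlation of same-numbered deviations was over 0.1, which held in 3 of 9 comparisons of days and in 0 of 9 of genotypes. Alternatives were pseudocounts of 1 and 0.01, a mean of at least 1 FPKM, all genes above 0, rescaling to a common total (TPM), size factors computed again, voom weights on the fragments, the replicate block, no minimum fold change, only the libraries compared, and each library left out. Levels of the introduced reprogramming factors are not reported here.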

Additional observations from a re-analysis of the deposited data

How the results depend on the processing

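Under alternatives other than leaving out a library, 472 counts of called genes stayed within 1.5 times their value and 8 did not. Most of the 472 were counts of 0 that stayed at 0, so this number does not measure how stable the other counts are. Stmn2 was no longer called lower between days 0 and 2 after rescaling to a common total (0 in place of 1 in WT and in Per2-labelled cells) and, in Per2-labelled cells, with all genes above 0 tested (0). A pseudocount of 1 raised the genes called higher between days 2 and 4 from 3 to 5 in WT and in Per1-/- cells, and a pseudocount of 0.01 gave 1 gene lower in Per2-labelled than in WT cells on day 0, Stmn3. With the replicate block, 5 genes were higher between days 2 and 4 and 1 was lower between days 0 and 2 in Per1-/- cells. The block took the count from 3 to 4 in WT cells between days 2 and 4 and from 6 to 7 in Per1-/- cells between days 0 and 2, and changed no other call of the 10 genes. Leaving out single libraries gave 0 to 1 genes lower between days 0 and 2 in each genotype.

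Changes of direction were seen in values that were called under neither setting. After rescaling to a common total, Tubb2b in Per1-/- cells was at 0.21 (day 2 against 0), Stmn2 in Per1-/- cells at 0.0535 (day 4 against 0), and Map1b in Per2-labelled cells at 0.29 (day 2 against 0). With single libraries left out, Tubb2b between days 0 and 2 ranged from -0.0732 to 0.23 in WT cells and from -0.33 to 0.00185 in Per1-/- cells. Map1b ranged from -0.0386 to 0.22 (day 2 against 0), -0.00226 to 0.29 (day 4 against 0), and -0.12 to 0.21 (day 4 against 2) in WT cells, from -0.011 to 0.0839 in Per1-/- cells (day 2 against 0), and from -0.18 to 0.0554, -0.063 to 0.18, and -0.0209 to 0.22 in Per2-labelled cells. Stmn2 in Per1-/- cells ranged from -0.83 to 0.34 (day 4 against 0), and Tubb3 in Per2-labelled cells from -0.22 to 0.30 (day 4 against 2). The cause of these changes was not tested. Depth limits Stmn3 and Dcx on day 0, where a library mostly held 0 to 5 fragments.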
